A study of Mus musculus with 6 samples.

Results

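The 6 satellite-like predicted mouse genes Gm10800, Gm10801, Gm26870, Gm10717, Gm10719 and Gm21738 were measured in single nuclei, out of 31319 genes in the deposited count matrices. They were chosen by their level in deposited cluster 4, whose leading genes they are among, so their level there against other nuclei is given as a description, with no test. Single nuclei of mouse jejunal organoids were sequenced after culture in conditioned medium of quiescent fibroblasts (QCM, 3 samples) or of senescent fibroblasts (SCM, 3 samples). The organoids of all 6 samples came from C57BL/6 mice aged 8 to 12 weeks, and the fibroblasts that made the media were mouse embryonic fibroblasts, arrested by serum deprivation for QCM and by X-ray irradiation or doxorubicin for SCM. Which inducer was used for the sequenced samples, and which animal or culture each replicate came from, is not given in the sources used here. The study's methods state in general that replicates are biological and stand for single mice unless noted otherwise, and do not say so for the sequenced samples in particular, so p-values measure only the spread between these samples, which may be technical.

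Mouse centromeres are flanked by long arrays of an A+T-rich tandem repeat, the major satellite, which is packed into heterochromatin marked by histone H3 lysine methylation and by HP1 proteins. The repeat can be transcribed from either strand, and its RNA is mostly kept in the nucleus. Some copies lie outside the arrays in assembled sequence, where gene-prediction pipelines have given them gene names although no function is known for the products.

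The 6 samples held 430 to 10833 nuclei and 4071926 to 41035733 UMIs (unique molecular identifiers, counted transcripts), with 38154 nuclei in all and a median of 1578 to 8260 UMIs per nucleus in a sample. Cluster 4 held 2282 nuclei, 5.98% of all. Its share was 6.46%, 1.99% and 12.4% in QCM replicates 1 to 3 and 36.5%, 3.68% and 2.55% in SCM replicates 1 to 3, and QCM replicate 3 alone supplied 55.3% of the cluster. Epithelial markers (Epcam, Cdh1, Krt8 and 5 others) summed to 3214 to 5065 CPM (counts per 1000000 UMIs) in each sample, while 6 fibroblast markers summed to 0.29 to 2.71 CPM and 4 immune markers to 0.58 to 2.41 CPM. QCM replicate 3 and SCM replicate 1 stood apart. QCM replicate 3 had the lowest median depth and held 28463 of the 41375 UMIs of the 6 genes (68.8%), and SCM replicate 1 had 430 nuclei, of which 175 (40.7%) carried a barcode that QCM replicate 1 also held. Of these 175 barcodes, 40 fell in the same cluster in both libraries, and every other pair of libraries shared at most 36 barcodes.

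All 6 genes were found in the GENCODE M21 annotation of GRCm38 (mm10). Gm10801 (ENSMUSG00000075015) lies at chr2:98662237-98664083 on the plus strand and Gm10800 (ENSMUSG00000075014) beside it at chr2:98666547-98667301 on the minus strand. Gm26870 (ENSMUSG00000097312), a long intergenic noncoding RNA gene on the minus strand, spans chr9:3000282-3038313. Gm10719 (ENSMUSG00000095547, chr9:3017408-3021593) and Gm10717 (ENSMUSG00000095891, chr9:3025417-3033289) lie within that span on the opposite strand, and Gm21738 (ENSMUSG00000095280) is at chr14:19415857-19418930 on the minus strand. All but Gm26870 are annotated as protein coding, and all 18 transcripts of the 6 genes have lengths that are multiples of 3. Some of their exons are separated by as little as 1 base, and the intronic gaps of Gm26870 reach 16781 bases.

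The transcripts are printed to show that genes on 3 chromosomes carry the same repeat, and that Gm26870 carries it on the other strand. Each stretch is 234 bases of a GENCODE M21 transcript (GRCm38), 5′ to 3′, at bases 503 to 736 of Gm26870-203, 418 to 651 of Gm10800-201, 1 to 234 of Gm10801-201 and 439 to 672 of Gm21738-201. Capitals mark a word of 27 bases, the longest that occurs 2 or more times in the longest transcript of each of the 5 other genes and, as its reverse complement, in that of Gm26870.
Gm26870: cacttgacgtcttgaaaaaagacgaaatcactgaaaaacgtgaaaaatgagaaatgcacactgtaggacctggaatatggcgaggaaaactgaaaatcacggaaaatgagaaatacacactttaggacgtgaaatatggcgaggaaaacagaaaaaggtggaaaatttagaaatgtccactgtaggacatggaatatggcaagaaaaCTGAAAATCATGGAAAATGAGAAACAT
Gm10800: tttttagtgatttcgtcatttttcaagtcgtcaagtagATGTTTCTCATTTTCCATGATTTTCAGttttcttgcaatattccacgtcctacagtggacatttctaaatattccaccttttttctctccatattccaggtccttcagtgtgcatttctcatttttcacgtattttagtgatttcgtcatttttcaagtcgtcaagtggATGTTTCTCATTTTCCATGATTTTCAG
Gm10801: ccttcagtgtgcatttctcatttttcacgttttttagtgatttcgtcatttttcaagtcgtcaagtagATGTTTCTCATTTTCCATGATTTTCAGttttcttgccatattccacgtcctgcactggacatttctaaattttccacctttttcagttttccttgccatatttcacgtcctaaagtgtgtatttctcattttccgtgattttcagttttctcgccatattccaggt
Gm21738: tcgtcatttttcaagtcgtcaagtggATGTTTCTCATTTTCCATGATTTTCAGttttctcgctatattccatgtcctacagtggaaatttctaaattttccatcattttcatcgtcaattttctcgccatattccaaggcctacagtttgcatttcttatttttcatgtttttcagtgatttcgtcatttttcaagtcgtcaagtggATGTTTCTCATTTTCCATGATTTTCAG

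The word ATGTTTCTCATTTTCCATGATTTTCAG, searched on both strands, was found 2 or more times in 16 of all 141767 GENCODE M21 transcripts (0.0113%), and these 16 all belong to 11 of the 13 genes made up of the 6 and 7 further predicted genes within or at the edge of the span of Gm26870 on chromosome 9 (Gm10715, Gm10718, Gm10720, Gm10721, Gm10722, Gm11168 and Gm17535). Shifted against itself, a transcript matched best at 225 to 237 bases, and 13 of the 18 transcripts matched best at 234 bases. The match ranged from 52.7% of bases in Gm10801-201 to 95.9% in Gm26870-202, where base composition alone gives 31.0% to 32.8%. T made up 45.8% to 48.6% of the transcripts of the 5 genes other than Gm26870, and A made up 45.5% to 46.5% of those of Gm26870. Their A+T content was 63.8% to 65.8%, against a median of 50.8% over all transcripts, and 2.29% of all transcripts reached the lowest of these values. No satellite consensus was compared with the transcripts here.

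Shared sequence bears on how reads were assigned. Of the 50-base words in its transcripts, Gm10719 shared 61.7% with another gene on the same strand, Gm10717 46.4%, Gm21738 32.0%, Gm10800 27.2% and Gm10801 17.1%. Gm26870 shared 0% on its own strand and 67.0% with genes on the opposite strand. No gene outside the 13 held such a word. Whether the counting used strand, introns or reads with several matches is not given in the sources used here, so the split of UMIs between these genes is uncertain. Between Gm26870 and the genes inside its span it turns on whether strand was used. Gm26870 also shares opposite-strand words with genes outside its span, 92 with Gm10800, 23 with Gm10801 and 140 with Gm21738. Reads with several matches enter there too. Among genes that share words on the same strand it turns on reads with several matches.

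Gm26870 gave most of the signal, with 31747 UMIs (76.7% of the 6 genes' total), followed by Gm10800 with 6207 and Gm10801 with 2328. Per kb of the longest transcript these were 27134, 9404 and 4619 UMIs, so the order is the same per length. Gm21738, Gm10717 and Gm10719 had 440, 343 and 310 UMIs, which is 646, 502 and 455 per kb.

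QCM replicate 3 was far above the other libraries for each of the 6 genes. Over all nuclei, Gm26870 measured 137, 35.5 and 1058 CPM in QCM replicates 1 to 3 and 79.6, 106 and 61.2 CPM in SCM replicates 1 to 3. Gm10800 measured 15.3, 4.53 and 243 CPM in QCM and 3.19, 16.0 and 10.4 CPM in SCM. Gm10801 measured 7.55, 2.06 and 85.0 CPM in QCM and 3.93, 7.02 and 4.22 CPM in SCM. QCM replicate 3 was 7.70-fold above the next library for Gm26870, 15.2-fold for Gm10800 and 11.2-fold for Gm10801, while the other 2 QCM samples lay on both sides of, or within, the SCM range.

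The 3 rarer genes had the same high library. Gm10717 reached 13.4 CPM in QCM replicate 3 and 0.25 to 0.77 CPM elsewhere, Gm10719 reached 12.1 CPM against 0.25 to 0.91 CPM, and Gm21738 reached 16.5 CPM against at most 1.17 CPM. In SCM replicate 1 Gm10717 and Gm10719 rested on 1 UMI each and Gm21738 had 0 of 4071926 UMIs, which allows up to 0.737 CPM. Such floors and the intervals below cover counting error only.

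The mix of the genes also varied between libraries. For every 100 UMIs of Gm26870 there were 23.0 of Gm10800 in QCM replicate 3, 17.0 and 15.2 in SCM replicates 3 and 2, 12.8 and 11.1 in QCM replicates 2 and 1, and 4.01 in SCM replicate 1, where only 13 UMIs of Gm10800 were counted. Gm10801 varied less, with 4.94 to 8.03 UMIs for every 100 of Gm26870.

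**Figure D1:**
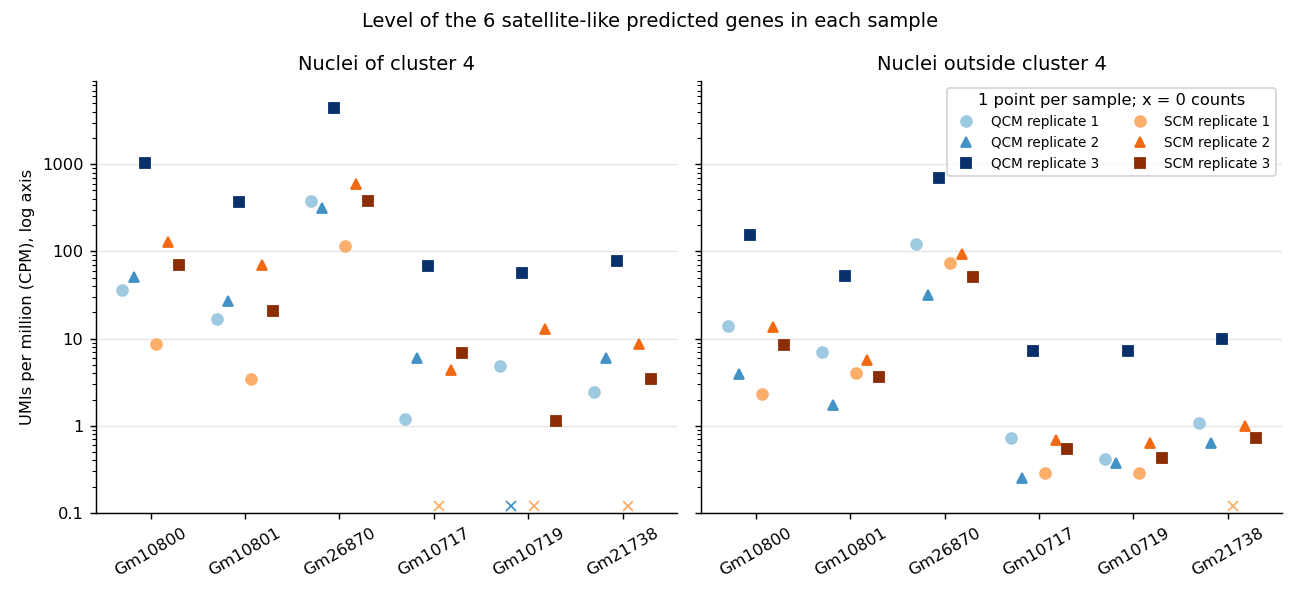
Level of each of the 6 genes in CPM (log axis) in the nuclei of cluster 4 (left) and in all other nuclei (right), 1 point per sample, with a cross where a sample had 0 counts. QCM replicate 3 is the highest point for every gene on both sides, at 4368 CPM of Gm26870 in cluster 4 and 687 CPM outside it.

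Cluster 4 held 34.1% of all UMIs of the 6 genes in 5.98% of the nuclei, a contrast that rests mostly on QCM replicate 3. There it held 42.2% of the sample's UMIs of the genes, against 12.6% to 20.8% in the other samples. In SCM replicate 1 it held 20.8% of them in 36.5% of the nuclei. Summed over the genes, the nuclei of cluster 4 measured 441, 402 and 5976 CPM in QCM replicates 1 to 3 and 127, 815 and 486 CPM in SCM replicates 1 to 3. The other nuclei of the same samples measured 145, 38.5 and 918 CPM and 80.6, 116 and 64.0 CPM. Cluster 4 was thus the higher in 6 of 6 samples, by 1.57-fold in SCM replicate 1 and up to 10.4-fold in QCM replicate 2, with a mean log2 ratio of 2.35 ± 1.02 (SD, n = 6). The mean was 2.28 without QCM replicate 3. The genes were chosen for this pattern, so it was not tested. Without the barcodes that both replicate 1 libraries share, SCM replicate 1 measured 112 CPM in cluster 4 (35 UMIs in 92 nuclei) and 83.4 CPM outside it.

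Most single genes followed the sum. Gm26870 was 1.56 to 9.84-fold higher in cluster 4 in 6 of 6 samples and Gm10800 2.57 to 13.2-fold higher in 6 of 6. Gm10801 was 2.43 to 15.9-fold higher in the 5 samples with more than 3 UMIs in the cluster, and in SCM replicate 1 it had 2 UMIs there (3.42 against 4.01 CPM). For the rarer genes only 2 or 3 samples had that many, and all of those were higher in cluster 4. A limit on UMIs in the cluster favours that outcome, and the samples left out went both ways. In QCM replicate 2, Gm10719 was at 0 CPM in cluster 4 and 0.376 CPM outside it (9 UMIs), while Gm10717 was at 6.05 against 0.250 CPM. In SCM replicate 1 both were at 0 against 0.287 CPM. Ranked by the ratio of mean CPM in cluster 4 to mean CPM in other nuclei, among the 7868 genes that averaged at least 20 CPM in the cluster, Gm10801 stood at rank 3 (6.79-fold), Gm10800 at rank 4 (6.78-fold) and Gm26870 at rank 8 (5.81-fold). Without QCM replicate 3 the ratios were 6.27, 7.02 and 4.79 and the ranks 7, 3 and 30, and without SCM replicate 1 the ranks were 2, 3 and 5. The rarer Gm10717, Gm10719 and Gm21738 averaged 14.5, 12.5 and 16.2 CPM in the cluster and were not ranked.

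The genes were also found in the 14 other clusters. Relative to its own sample, the summed level was 2.09 ± 0.97 log2 units higher in cluster 4 (SD, n = 6), followed by cluster 8 at 0.29 ± 0.77 (n = 6), in which the enterocyte markers were 2.79-fold above other nuclei, and cluster 10 at 0.25 ± 0.18 (n = 5), in which the enteroendocrine markers were 8.52-fold above them. Clusters 3, 7 (fetal-type markers 8.91-fold higher), 1, 13, 12, 11 (tuft markers 79.0-fold higher), 5, 9 (enteroendocrine markers 10.6-fold higher), 6 (goblet markers 4.44-fold higher) and 2 followed in that order, and clusters 0 and 14 were lowest at −0.53 ± 0.52 (n = 6) and −1.01 ± 1.10 (n = 3). From cluster 8 down, the steps between neighbours in this order were at most 0.48 log2 units and did not exceed the SDs of both clusters. The step from cluster 4 to cluster 8 was 1.80 log2 units, a value that the choice of the genes set. Cluster 14 also had by far the deepest nuclei, with a median of 39432.5 UMIs.

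QCM replicate 3 was the highest library in 14 of the 14 clusters in which it had at least 10 nuclei, by 2.47-fold in cluster 8 to 12.2-fold in cluster 12 over the next library with at least 10 nuclei there. In cluster 12 the 1 nucleus of SCM replicate 1 was at 551 CPM, from 1 UMI. Cluster 4 ranked first in 5 of 6 samples and at place 5 of 9 clusters in SCM replicate 1, where cluster 3 led with 259 CPM from 60 UMIs in 21 nuclei.

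**Figure D2:**
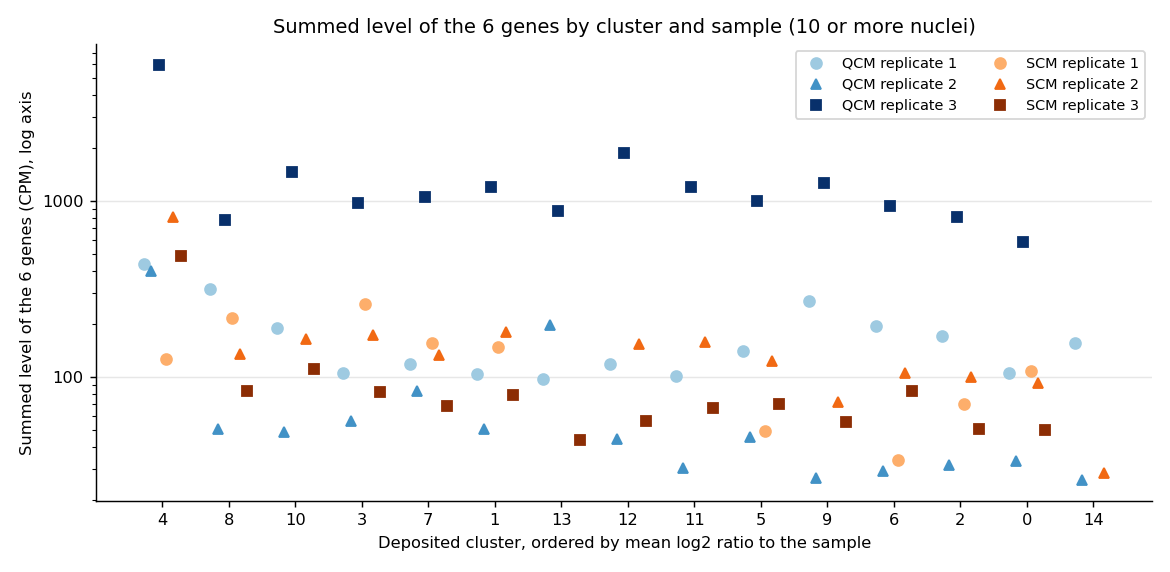
Summed level of the 6 genes in CPM (log axis) for each deposited cluster, 1 point per sample with at least 10 nuclei in the cluster, with clusters ordered by their mean log2 ratio to the sample. QCM replicate 3 lies above every other sample in each cluster it is plotted in, from 583 CPM in cluster 0 to 5976 CPM in cluster 4.

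At the level of single nuclei, 86.9% of cluster 4 nuclei of QCM replicate 3 and 67.1% of its other nuclei held a UMI of the genes, against 25.5% to 58.0% and 9.17% to 50.4% in the other samples. In SCM replicate 1 alone the share was lower in cluster 4 (25.5%) than outside it (30.4%). Depth differs between samples, so each nucleus was also thinned to 1000 UMIs, which left out the shallower nuclei, from 0 in QCM replicate 1 to 1876 in QCM replicate 3. Thinned, the share in QCM replicate 3 was 71.4% in cluster 4 (95% Wilson interval 68.0 to 74.5) and 47.7% outside it (46.6 to 48.9). In the other 5 samples it was 12.6% to 23.5% in cluster 4 and 3.58% to 11.3% outside it. The values lay closest in SCM replicate 1, at 12.6% (7.91 to 19.5) against 9.14% (5.86 to 14.0). The intervals are over nuclei of 1 library and give the precision of each share, not a test of the cluster the genes were chosen for. No cell type is known to lack these genes, so a background share from free RNA could not be set beside these values.

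In 481 nuclei the 6 genes made up at least 1% of all UMIs, and 468 of these were in QCM replicate 3 and 336 in cluster 4. The highest share was 8.92%, and the median depth of the 481 nuclei was 847 UMIs. Nuclei with a UMI of Gm26870 also held a UMI of Gm10800 in a larger share than those without, in the 3 samples with the most UMIs of the genes. In cluster 4 of QCM replicate 3, Gm10800 had a UMI in 63.9% of the nuclei with a UMI of Gm26870 and in 18.7% of those without, and outside cluster 4 in 27.9% and 15.8%. In QCM replicate 1 the shares were 29.5% and 13.01% in cluster 4 and 14.9% and 8.98% outside it. In SCM replicate 2 they were 37.7% and 8.87% in cluster 4 and 9.27% and 3.69% outside it. Deeper nuclei are more likely to hold a UMI of either gene, and the part of depth in these shares was not tested.

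**Figure D3:**
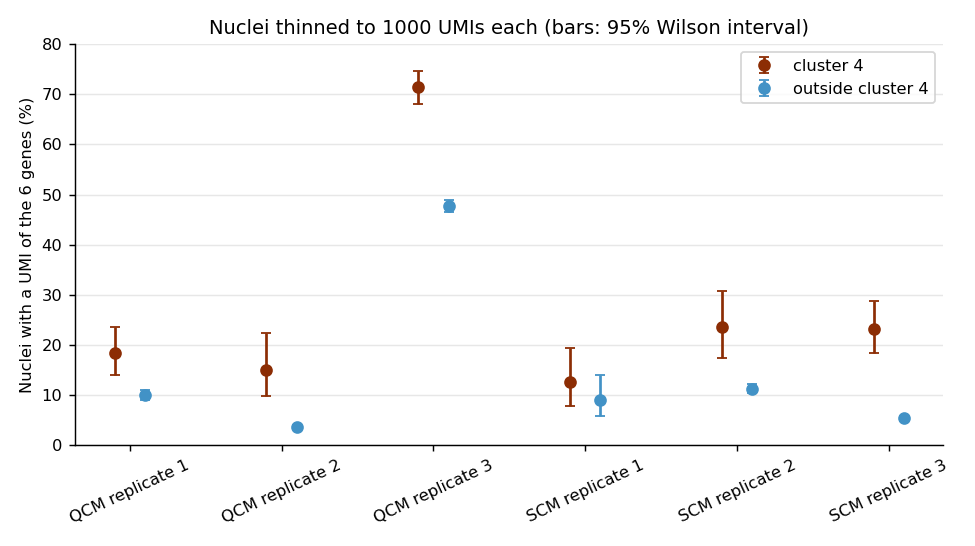
Share of nuclei with at least 1 UMI of the 6 genes after each nucleus was thinned to 1000 UMIs, in percent, for cluster 4 and for other nuclei of each sample, with 95% Wilson intervals. Nuclei with fewer UMIs were left out, 520 of 1261 in cluster 4 of QCM replicate 3 and 0 in QCM replicate 1. QCM replicate 3 stands at 71.4% and 47.7%, and no other sample exceeds 23.5%.

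The level of the genes varied with the depth of a nucleus. Over all nuclei the shallowest and deepest nuclei differed most in QCM replicate 3. When the nuclei of that sample were split into 5 groups of equal size by their UMI count, the summed level was 5817, 1935, 1105, 881 and 800 CPM from the shallowest group (median 797 UMIs) to the deepest (3238 UMIs). Cluster 4 made up 27.1% of the shallowest group and 7.64% of the deepest, and the median mitochondrial share of UMIs was 6.12% and 2.32%. Outside cluster 4 the shallowest group was still 4.61-fold above the deepest, at 2872 against 623 CPM. Within cluster 4 the groups were at 10100.5, 14868, 8784, 4407 and 2779 CPM, with the highest level in the group next to the shallowest. Counted per nucleus, the shallowest group of all nuclei held 4.77 UMIs of the genes and the deepest 3.27. Within cluster 4 these were 7.38 and 9.89 UMIs, and outside it 2.49 and 2.59 UMIs.

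Over all nuclei the steps were smaller in the other samples. In QCM replicate 2 and SCM replicates 1, 2 and 3, the shallowest group was at 117, 276, 350 and 116 CPM and the deepest at 36.3, 74.0, 102 and 87.0 CPM, but the 276 CPM rested on 17 UMIs. QCM replicate 1, the deepest library per nucleus, went the other way, with 105 CPM in its shallowest group (median 6086 UMIs) and 224 CPM in its deepest (16513 UMIs). Within cluster 4 the shallowest group was 8.11-fold above the deepest in QCM replicate 2, 6.53-fold in SCM replicate 2 and 3.89-fold in SCM replicate 3, where it was 3.63-fold in QCM replicate 3. It was 1.37-fold in SCM replicate 1, on 5 UMIs in the shallowest group, and 0.184-fold in QCM replicate 1. Over all nuclei of the 5 samples other than QCM replicate 3, the UMIs of the genes per nucleus were 1.77 to 13.2-fold higher in the deepest group than in the shallowest. Within cluster 4 the deepest group was at 0.52-fold of the shallowest in QCM replicate 2 and 0.89-fold in SCM replicate 2. It was at 17.1-fold in QCM replicate 1 and at 9.40 and 2.12-fold in SCM replicates 1 and 3. Spearman's rho of the members' share of UMIs with depth, over the nuclei of a sample, was −0.30 in QCM replicate 3 (10144 nuclei) and 0.03 to 0.17 in the others, where the UMI count enters both measures and where most nuclei outside QCM replicates 1 and 3 had 0 UMIs of the genes. When each nucleus was thinned to 500 UMIs, rho was −0.31 in QCM replicate 3 and was below 0 in SCM replicates 1, 2 and 3 and QCM replicate 2 as well, at −0.10 to −0.01, and 0.03 in QCM replicate 1. Thinned to 1000 UMIs, it was −0.18 in QCM replicate 3 over the 8268 nuclei that were deep enough.

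**Figure D4:**
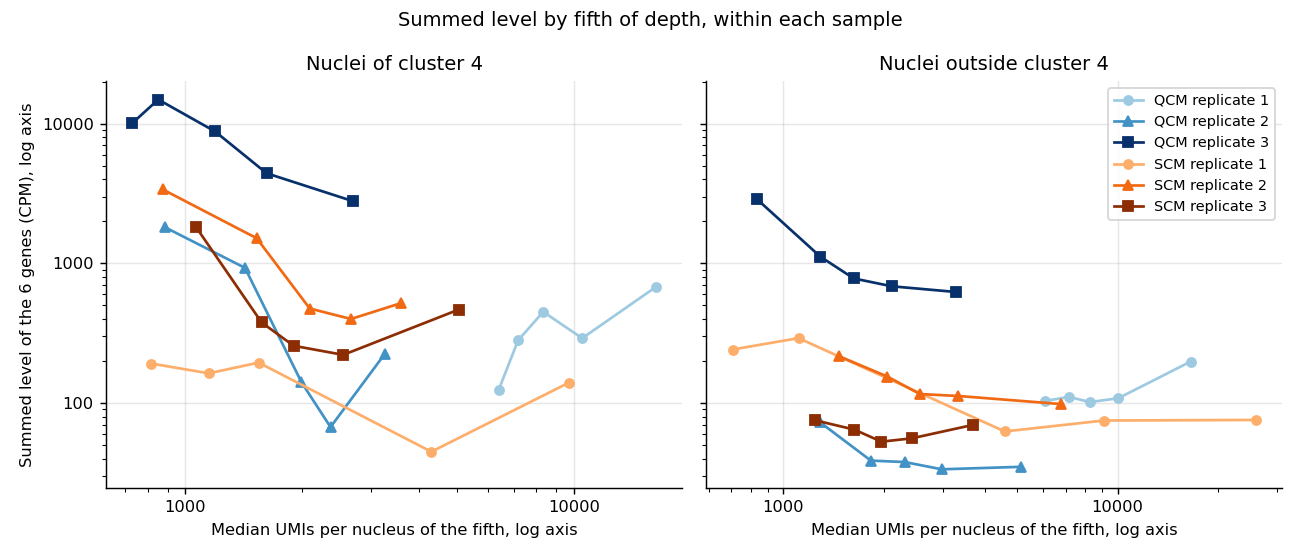
Summed level of the 6 genes in CPM against the median UMI count of each of the 5 depth groups, both on log axes, for cluster 4 (left) and other nuclei (right), with 1 line per sample. In QCM replicate 3 the level outside cluster 4 goes from 2872 CPM in the shallowest group to 623 CPM in the deepest, and in QCM replicate 1 from 103 to 198 CPM.

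Depth and mitochondrial share also differ between cluster 4 and other nuclei. The median nucleus of cluster 4 was shallower in 5 of 6 samples, at 1191 against 1626 UMIs in QCM replicate 3 and 1544 against 4597 UMIs in SCM replicate 1, and in QCM replicate 1 it was 8340 against 8259.5 UMIs. Its median mitochondrial share was higher in 6 of 6 samples, at 5.82% against 3.46% in QCM replicate 3 and 1.08% against 1.00% in QCM replicate 1. The part of depth and of mitochondrial RNA in the level of the 6 genes was not tested.

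Whether the medium changed the genes was tested on UMI counts summed per sample. The genes were chosen by cluster and not by medium, but the choice was not independent of the media, since QCM replicate 3 held 55.3% of the nuclei of cluster 4 and 85.1% of the UMIs of the 6 genes in it. Of the 6 genes 0 passed the test between media over all nuclei (edgeR's quasi-likelihood test, Benjamini-Hochberg adjusted p = 0.927 for each), and 0% of all 19046 genes tested passed. The fitted levels were lower in SCM, with log2 ratios of SCM over QCM of −3.19 for Gm10800 (SE 1.32), −3.05 for Gm21738 (SE 1.27), −2.98 for Gm10719 (SE 1.30), −2.96 for Gm10717 (SE 1.31), −2.74 for Gm10801 (SE 1.17) and −2.47 for Gm26870 (SE 1.03). The edgeR test gives no SE. Each SE here and below is an approximation, the absolute log2 ratio divided by the square root of the test's F value. It is unreliable for ratios near 0. After adjustment DESeq2 called 0 of the 6, and 20 of all 19046 genes. At an unadjusted p below 0.05 in edgeR, 4 of the 6 genes were lower in SCM, where 3.08% of all genes were (and 4.55% in either direction). The 6 genes share sequence and are all highest in QCM replicate 3. Such counts, here and in the comparisons below, are therefore not counts of independent genes. The count of genes at that p moved with the processing. It was 6 with DESeq2 (and 1225 of all 19046 genes in either direction), 6 with library size alone (816 of 19046) and 6 without the low-count filter (1362 of 31319). It was 0 with the replicate number as a block (1180 of 19046), where the log2 ratios were smaller at −2.35 to −1.25, 0 with voom, limma and quantile normalization (656 of 19046), where they were −1.79 to −1.16, and 0 without nuclei under 1000 UMIs (804 of 18965). It also moved with single libraries, to 6 without QCM replicate 1 (306 of 19880) or QCM replicate 2 (2340 of 19859), and to 0 without QCM replicate 3 (856 of 19584), SCM replicate 1 (424 of 19747), SCM replicate 2 (163 of 20061) or SCM replicate 3 (1234 of 19868). Without QCM replicate 3 the log2 ratios were between −0.53 and −0.03 with SEs of 0.62 to 0.83. The CPM of QCM and SCM samples overlapped for all 6 genes, while 7.08% of all genes tested showed no overlap.

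Gm26870 averaged 410 ± 563 CPM in QCM and 82.1 ± 22.3 CPM in SCM (SD, n = 3 each), but 86.5 CPM in the 2 QCM samples other than replicate 3. Gm10800 averaged 87.7 ± 135 CPM in QCM and 9.87 ± 6.43 CPM in SCM, but 9.89 CPM in those 2 QCM samples. In a summed level, fewer nuclei with these transcripts and fewer transcripts per nucleus cannot be told apart.

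In cluster 4 alone only Gm10800, Gm10801 and Gm26870 had enough counts to be tested, and 0 of these 3 passed, as did 0% of 9165 genes (adjusted p = 0.494 for each, edgeR). Their log2 ratios were −2.74 (SE 1.21), −2.55 (SE 1.15) and −2.48 (SE 1.03). Without QCM replicate 3 they were 0.53 (SE 0.74), 0.35 (SE 0.81) and −0.12 (SE 0.58), so that 2 of the 3 changed sign. At an unadjusted p below 0.05 there were 2 of the 3, both lower in SCM, where 8.13% of all genes were (and 10.1% in either direction). With the replicate block there were 3 of the 3 (and 1176 of all 9165 genes in either direction), with log2 ratios of −2.11 to −1.72, and with library size alone 3 of the 3 (796 of 9165). There were 3 of 3 without QCM replicate 1 (249 of 9010) and 4 of the 4 then tested without QCM replicate 2 (1539 of 10142). There were 0 with voom and limma (757 of 9165), when QCM replicate 3 was left out (807 of 9004) or SCM replicate 3 was (1123 of 9044) and, of 4 tested, when SCM replicate 1 was (579 of 10066). DESeq2 gave a p for Gm10800 alone of the 3 and did not call it (adjusted p = 0.738), and it called 0 of all 9165 genes. The media overlapped for all 3, against 13.4% of genes without overlap. With no low-count filter 6 of the 6 genes and 445 of 27255 genes passed in cluster 4, with an adjusted p of edgeR from 2.19e-12 for Gm10800 to 0.00071 for Gm10719. When QCM replicate 3 was also left out 0 of the 6 passed while 443 of 23666 genes did, and the adjusted p of Gm10800 ranged from 2.19e-12 to 1.00 over all settings tried.

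In nuclei outside cluster 4, where the size of the cluster does not enter the level, 5 of the 6 genes could be tested and 0 passed, as did 0% of 18838 genes (adjusted p = 0.891 for each, edgeR). Their log2 ratios ranged from −2.85 for Gm10800 (SE 1.20) to −2.10 for Gm26870 (SE 0.92), and without QCM replicate 3, when all 6 could be tested, from −0.56 to 0.08. Gm10800 was the 1 gene with an unadjusted p below 0.05, where 3.42% of all genes were lower in SCM and 5.04% differed in either direction. With library size alone it was 4 of 5 (and 926 of all 18838 genes in either direction), with DESeq2 3 of 5 (1268 of 18838), and without the low-count filter 6 of 6 (1446 of 31304). After adjustment DESeq2 called 0 of the 5, and 33 of all 18838 genes. The count at the unadjusted p also moved with other settings. That count was 0 of 5 with the replicate block (1204 of 18838), with voom and limma (717 of 18838) and without nuclei under 1000 UMIs (893 of 18831). With 1 library left out all 6 could be tested, and it was 6 without QCM replicate 1 (323 of 19699) or QCM replicate 2 (2376 of 19676) and 0 without QCM replicate 3 (914 of 19461), SCM replicate 1 (464 of 19655), SCM replicate 2 (204 of 19862) or SCM replicate 3 (1374 of 19688). The media overlapped for all 5, against 7.47% of genes without overlap.

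The medium difference inside cluster 4 was also compared with that outside it, with the sample as a block. Of the 6 genes 0 passed (edgeR, smallest adjusted p = 0.907), against 0.035% of 14269 genes. The difference of log2 ratios was 0.58 for Gm10800 (SE 0.27, unadjusted p = 0.035) and between −0.09 and 0.27 for the 5 others, with SEs of 0.25 to 0.79. An unadjusted p below 0.05 was reached by 1 of the 6 genes and by 5.33% of all genes, and by 0 of the 6 without SCM replicate 2 (681 of 14859 genes) or SCM replicate 3 (1076 of 14947) and 2 without SCM replicate 1 (863 of 19844). For Gm10800 the difference was 0.10 with the replicate number as a block in place of 0.58 (unadjusted p = 0.635), and it ranged from 0.17 to 1.12 as each library was left out, with the highest value without QCM replicate 3. With the block Gm26870 was the 1 gene of the 6 with an unadjusted p below 0.05 (−0.37, SE 0.13, edgeR adjusted p = 0.618).

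**Figure D5:**
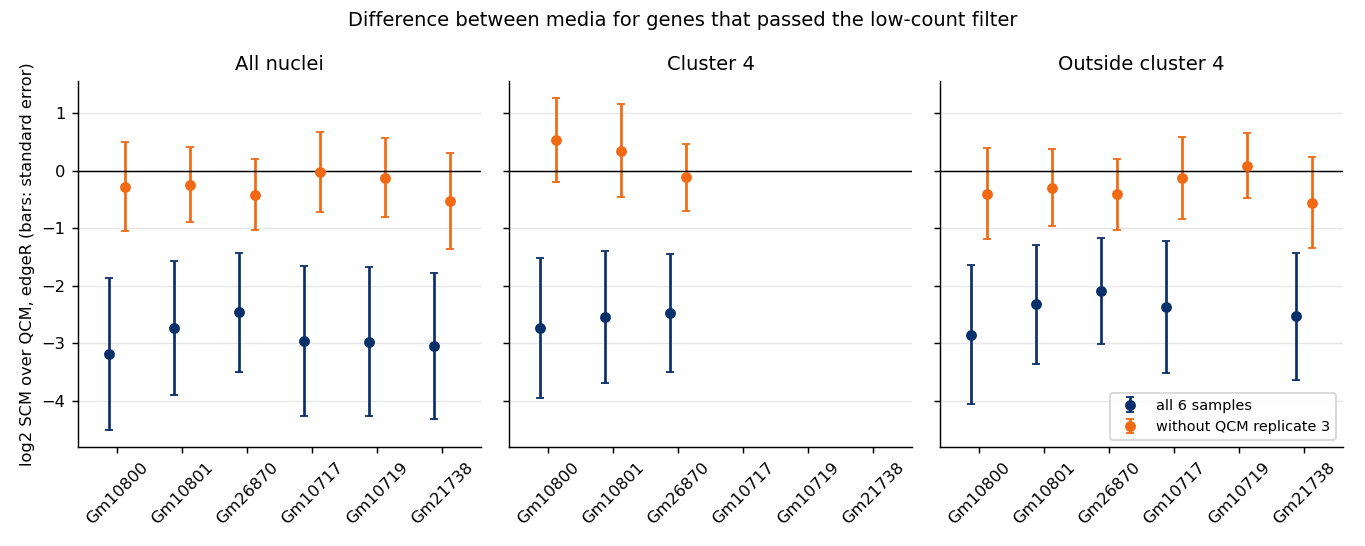
Log2 ratio of SCM over QCM with its standard error, from edgeR on counts summed per sample, for the genes that passed the low-count filter in all nuclei, in cluster 4 and outside it, with all 6 samples and without QCM replicate 3. With all samples the ratios lie between −3.19 and −2.10, and without QCM replicate 3 between −0.56 and 0.53.

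The 7 further predicted genes of the chromosome 9 locus share sequence with Gm10717 and Gm10719 and were rarer. Their sum was 19.0 CPM in QCM replicate 3 and 0.70 to 1.56 CPM in the 5 other samples over all nuclei, and 88.1 CPM against 1.71 to 6.84 CPM in cluster 4. Only Gm11168 had enough counts for a test between media over all nuclei, and it did not pass (log2 ratio −2.41, SE 1.14, edgeR adjusted p = 0.927). In cluster 4 with no low-count filter, where 445 of 27255 genes passed, Gm10721 and Gm11168 did and the others did not. The log2 ratios of these 2 genes were −6.14 (edgeR adjusted p = 0.012) and −3.97 (adjusted p = 0.037). In cluster 4, Gm10721 had 0 UMIs in each SCM sample. Gm11168 had 0 there in SCM replicates 1 and 2 and 1 in SCM replicate 3. The sizes of both ratios thus rest on counts at the floor. QCM replicate 3 held 92.3% of the UMIs of Gm10721 and 91.1% of those of Gm11168 in the cluster.

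A list of genes that build or keep heterochromatin was measured beside them. It holds 26 genes, among them the H3K9 methyltransferase genes Suv39h1 and Suv39h2, Cbx5 (HP1 alpha), the maintenance DNA methyltransferase Dnmt1, the remodeller Hells and Trim28, a corepressor scaffold. Its summed level was 2504 CPM in QCM replicate 3 and 2253 to 3057 CPM in the other samples. In cluster 4 against other nuclei, 0 of the 26 were higher or lower by 2-fold (on mean CPM with 1 added, for this and the lists that follow) and the median log2 ratio was −0.09, where the median of all genes was −0.04 and 2.11% of all genes were 2-fold higher. Between media 0 of the 26 passed over all nuclei (median log2 ratio 0.01, all genes −0.01), 0 of 23 tested passed in cluster 4 (median 0.13, all genes 0.03) and 0 of 26 passed outside it. Trim28 passed in cluster 4 with no low-count filter, with all 6 samples (log2 ratio −1.12, edgeR adjusted p = 0.025) and without QCM replicate 3 (log2 ratio −1.22, edgeR adjusted p = 0.037), and did not with the filter (log2 ratio −1.02, adjusted p = 0.494). In the 2 fits without the filter 445 of 27255 and 443 of 23666 genes passed, and edgeR's prior degrees of freedom were infinite.

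Another list holds 6 noncoding RNAs, most of which stay in the nucleus. Malat1, Neat1, Kcnq1ot1, Gm42418, AY036118 and Rn7sk together measured 79278 CPM in QCM replicate 3 and 48195 to 90012 CPM in the others, and 0 of the 6 were 2-fold higher or lower in cluster 4. Most of that sum was Gm42418, at 59143 CPM in QCM replicate 3. Short of 2-fold, Malat1 (log2 ratio −0.60), Neat1 (−0.66) and Kcnq1ot1 (−0.35) were lower in cluster 4 than in other nuclei of each sample. Gm42418 (0.49) was higher in each. AY036118 (0.28) and Rn7sk (−0.36) were higher in some samples and lower in others. Markers of cell types outside the epithelium were low in cluster 4, where the fibroblast list reached 8.95 CPM in QCM replicate 3 and at most 1.14 CPM elsewhere, the immune list reached at most 3.98 CPM and the endothelial list at most 10.4 CPM. Their part in the level of the 6 genes was not tested. Epithelial, stem and enterocyte markers had median log2 ratios of 0.04, −0.06 and 0.11 in cluster 4 against other nuclei. The medians were 0.23 for Paneth, −0.08 for enteroendocrine, −0.19 for tuft, −0.29 for goblet and −0.59 for fetal-type markers. Summed, the fetal-type list was at 0.61-fold of other nuclei and higher in 0 of 6 samples. The summed Paneth list was at 1.23-fold and higher in 6 of 6.

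Which other genes led cluster 4 rested largely on SCM replicate 1, which had 157 nuclei in the cluster. Leaving out the 6, the 10 leading genes by ratio of mean CPM were Agbl4, Cdh12, Vwc2l, Naa11, Ralyl, Nrxn3, Wdr72, Ninj2, Vmn2r103 and Gm11337. Without SCM replicate 1, a setting chosen after seeing the data, only Agbl4, Nrxn3 and Wdr72 of these averaged 20 CPM in the cluster and remained among the 10, and without QCM replicate 3 8 of the 10 remained. Agbl4, a carboxypeptidase that trims glutamates from tubulin, measured 34.2 CPM on average in cluster 4 and 3.58 CPM in other nuclei. Cdh12, a cadherin of neurons, measured 22.2 and 3.01 CPM, and Nrxn3, a synaptic adhesion protein, 20.3 and 3.61 CPM. Agbl4, Cdh12 and Nrxn3 each span over 1 Mb of the genome. The median span of the 10 was 166 kb (1358 kb for the 10 that led without SCM replicate 1) against 12.1 kb for all genes with a count. The 10 came from the 7868 genes that averaged at least 20 CPM in the cluster. The median span of those is not given here, so that filter enters the contrast. Of the 59 genes that span over 1 Mb, 37 were 2-fold higher or more in cluster 4 (62.7%), against 2.11% of all genes, many of which are too low to reach that fold once 1 CPM is added. It was 36 of the 59 without SCM replicate 1 and 34 without QCM replicate 3. The 59 summed were at 8928 CPM in cluster 4 and 9417 CPM in other nuclei. Cdh12 was at 73.6 CPM in cluster 4 of SCM replicate 1 and 34.3 CPM in that of QCM replicate 3.

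Across 81 sums, each of the nuclei of a sample in a cluster with at least 10 of them, the genes outside the satellite-like group whose level was most like that of the 6 summed were Rpph1, Grm7, Cntnap2, Chl1 and Csmd1, with Spearman's rho of 0.69, 0.67, 0.65, 0.64 and 0.63 among 12119 genes compared (median −0.13). Sums of 1 sample share a library and its depth, and rho was 0.51, 0.60, 0.51, 0.51 and 0.36 over the 67 sums without QCM replicate 3. Rpph1, the RNA subunit of ribonuclease P, was at 63.2 CPM in QCM replicate 3 and 8.85 to 40.8 CPM in the other samples. Grm7, a glutamate receptor gene, was at 13.2 CPM there and 0.91 to 8.60 CPM elsewhere. Cntnap2, Chl1 and Csmd1, long genes known for roles in neurons, were higher in SCM replicate 1 than in QCM replicate 3 for Cntnap2 (73.4 against 43.2 CPM) and Chl1 (30.5 against 22.7 CPM), and lower for Csmd1 (7.61 against 16.9 CPM).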

How the data were processed

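Nuclei of frozen organoids were sequenced with Chromium 3ʹ libraries, and the authors aligned and counted them with Cell Ranger 2.1.1 (mm10 and Cell Ranger per the submitters' processing notes), filtered nuclei by UMIs, genes and mitochondrial reads, integrated libraries and clustered the nuclei. The deposited matrices hold UMI counts per gene and nucleus, not normalized. The deposited nucleus table gives each nucleus its cluster and its mitochondrial fraction of UMIs, and its UMI totals exceed the matrix totals by a median of 3.13%. No columns of other samples were used.

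Matrices were read in Python 3.11.15 (numpy 2.4.6, scipy 1.17.1, pandas 2.3.3, scanpy 1.11.5, matplotlib 3.10.9), and all nuclei of the deposited table were kept. Scrublet in scanpy marked 261 nuclei (0.684%) as doublets, and none were removed in the results given. As an alternative the 6% with the highest scores (2290 nuclei, 159 in cluster 4) were left out. Counts were summed per sample, over all nuclei, cluster 4 or other nuclei, and CPM is counts per 1000000 UMIs of that sum. Media were compared with edgeR 4.0.16 in R 4.3.3 (filterByExpr with a minimum count of 10, TMM, quasi-likelihood test, two-sided, Benjamini-Hochberg over all genes tested, threshold 0.05). The tests were also run on simulated counts with a dispersion of 0.05 for every gene. The 6 genes varied more than that between the QCM samples, so the run does not show how the tests work for them. Alternatives were DESeq2 1.42.0, voom in limma 3.58.1, other scalings and filters, nuclei left out by depth, doublet score or shared barcode, a replicate block and each library left out. Gene models and transcripts came from GENCODE M21 (GRCm38), in which all 6 genes and the 7 further genes were matched by symbol and Ensembl ID. Depth was 4071926 to 41035733 UMIs per sample, and nuclei within a sample were never used as replicates.

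All 6 genes are named, further genes are given as lists, and the 10 leading genes of cluster 4 and the 5 genes most like the sum (mean of at least 5 CPM) are named by rank. The genes and lists were chosen with earlier results of these data known.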

Additional observations from a re-analysis of the deposited data

How the results depend on the processing

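No gene of the 6 passed between media under any alternative over all nuclei or outside cluster 4, or in the comparison of cluster 4 with other nuclei. In cluster 4, leaving out the low-count filter let 6 pass, and edgeR's prior degrees of freedom were then infinite, against 6.06 with the filter. The log2 ratio of SCM over QCM in cluster 4 turned without QCM replicate 3 to 0.53 for Gm10800 and 0.35 for Gm10801, with other libraries left out reaching −3.40 and −3.66, and to 0.43 and 0.23 without the filter as well. The difference of log2 ratios between cluster 4 and other nuclei, small for every gene but Gm10800, turned in 22 cases, and the cause was not tested. With a replicate block it was 0.10 for Gm10800, −0.52 for Gm10801, −0.37 for Gm10719, −0.59 for Gm21738 and −0.24 for Gm10717. Leaving out each library in turn gave values from 0.17 to 1.12 for Gm10800, −0.73 to 1.41 for Gm10717, −2.19 to 0.78 for Gm10719, −0.57 to 0.87 for Gm10801, −0.43 to 1.01 for Gm21738 and −0.57 to 0.32 for Gm26870. It also turned without nuclei under 1000 UMIs (−0.10 for Gm10719, 0.031 for Gm26870) and under settings chosen after seeing the data, with replicates 2 and 3 alone (−0.40 for Gm21738, −0.11 for Gm10717) and with neither the filter nor QCM replicate 3 (−0.16 for Gm10719, 0.048 for Gm26870). In that comparison 5 of 14269 genes passed, and 16 with the replicate block and 10 with library size alone of the same number tested. With other numbers tested there were 35 of 14947 without SCM replicate 3, 24 of 31319 with no low-count filter, 9 of 19844 without SCM replicate 1, 8 of 14550 without QCM replicate 1 and 0 of 13133 without the shared barcodes. DESeq2 called 20 of 19046 genes over all nuclei and 33 of 18838 outside cluster 4, where edgeR called 0. Replicate numbers were not used as pairs in the results given, a choice made before the tests. The deviations of same-numbered samples correlated at 0.36, 0.46 and −0.09 over 19046 genes, and those of differently numbered samples at −0.46 to 0.16. With 3 samples per medium these values cannot settle whether replicate numbers are pairs. With the replicate block 0 of the 6 genes passed in any comparison. Leaving out 1 library moved the mean log2 ratio of cluster 4 to other nuclei between 2.14 and 2.69. Removing barcodes shared by the replicate 1 libraries, an alternative chosen after seeing the data, changed no call of the 6 genes. Depth limits Gm10717, Gm10719 and Gm21738, which had 0 to 3 UMIs in cluster 4 of at least 3 of the 6 samples each.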
